A study of Mus musculus with 12 samples.

Results

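Interleukins and their receptors were followed across 12 mouse breast tumors on a panel of 750 immune genes. The members were the genes whose symbol is Il followed by a digit. There were 59 such genes, and 9 were left out by name (Il1a, Il1b, Il1rn, Il1r1, Il18, Il6, Il6ra, Il6st and Il2ra). The remaining 50 genes comprised 26 receptor genes and 24 ligand genes. Il22ra2, whose product is a secreted protein that binds IL-22, was counted with the receptors by its symbol.

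The tumors came from the K14-Cre;Brcaf/fTrp53f/f model of triple negative breast cancer, in which the keratin 14 promoter drives Cre in epithelial cells and the study's methods give Brca1 and Trp53 as the floxed genes, and were grown as transplants in the mammary fat pads of female FVB/129P2 mice. The recipients had an immune system of matching background, and the labels do not say how many donor tumors were used. Each group held 3 tumors, all taken 3 days after treatment began. Vehicle mice received DMSO in saline by the intraperitoneal route and saline into the tumor. ADU-S100 mice received 50 μg of ADU-S100, a cyclic dinucleotide that activates STING, in a single intratumoral injection of 40 μl on the first day. Olaparib mice received the PARP inhibitor olaparib at 50 mg/kg daily, and combination mice received both agents. DMSO and the intratumoral injection were thus common to all 4 groups. Below, values are given for vehicle tumors 1269, 1529 and 1536, ADU-S100 tumors 1506, 1512 and 1513, olaparib tumors 1510, 1517 and 1521, and combination tumors 1251, 1270 and 1539, in that order. The labels do not state that each tumor came from its own mouse, so the p-values measure the spread between these samples.

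Interleukins are secreted proteins through which leukocytes, epithelium and stroma address each other, and their transcripts are often scarce and short-lived. Their receptors are assembled from chains that are shared within families. The common gamma chain, encoded by Il2rg, serves IL-2, IL-4, IL-7, IL-9, IL-15 and IL-21 and signals through JAK and STAT proteins. IL-12 and IL-23 share the subunit encoded by Il12b, and IL-12 from myeloid cells is known for inducing interferon-γ in T and NK cells. Receptors of the IL-1 family signal through MyD88 and IRAK kinases towards NF-κB, and IL-17 receptors act on epithelium and stroma.

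Depth differed between the tumors. The deposited normalized counts were whole multiples of 1 step per tumor, so the counts behind them could be recovered, and the size of the step, called the factor here, is the normalized value of 1 count. The totals of recovered counts ran from 106206 in olaparib tumor 1517 to 1519471 in vehicle tumor 1269. The factor was 10.5 in olaparib tumor 1517 and between 0.589 and 2.85 in the other tumors. The 5 largest factors were those of olaparib tumors 1517 and 1510, ADU-S100 tumors 1506 and 1512, and vehicle tumor 1529 (1.49), followed by ADU-S100 tumor 1513 (1.43), whereas the combination tumors had factors of 0.810 to 0.824. The epithelial genes on the panel (Epcam, Cdh1 and Muc1, 3 of the 7 listed) summed to between 10802 and 22177 normalized counts in every tumor. In bulk tumor RNA, fewer cells of a type and less RNA per cell cannot be told apart.

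Receptors were counted far more often than ligands. Of the 26 receptors, 11 had more than 20 recovered counts in all 12 tumors (42.3%), against 2 of the 24 ligands (8.33%). At the other end, 13 ligands (54.2%) and 5 receptors (19.2%) never exceeded 20 counts. Over the whole panel, 52.3% of the 750 genes were above 20 counts in every tumor and 10.4% in none. The remaining 10 receptors and 9 ligands lay between. These are shares of genes and not levels, since probes of different genes cannot be compared in brightness.

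The 11 receptors above 20 counts in every tumor were Il11ra1, Il13ra1, Il15ra, Il17ra, Il17rb, Il18r1, Il1rap, Il2rb, Il2rg, Il3ra and Il4ra, with 27 to 9048 counts. The 2 ligands were Il17b and Il34, with 30 to 702. The 10 receptors in between were Il10ra, Il12rb2, Il18rap, Il1r2, Il1rl1, Il1rl2, Il21r, Il22ra1, Il22ra2 and Il7r (2 to 664 counts), and the 9 ligands were Il12a, Il12b, Il15, Il16, Il17f, Il19, Il23a, Il24 and Il7 (2 to 155 counts). Without olaparib tumor 1517, the tumor of lowest depth, 17 receptors and 3 ligands were above 20 counts in every tumor.

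**Figure D1:**
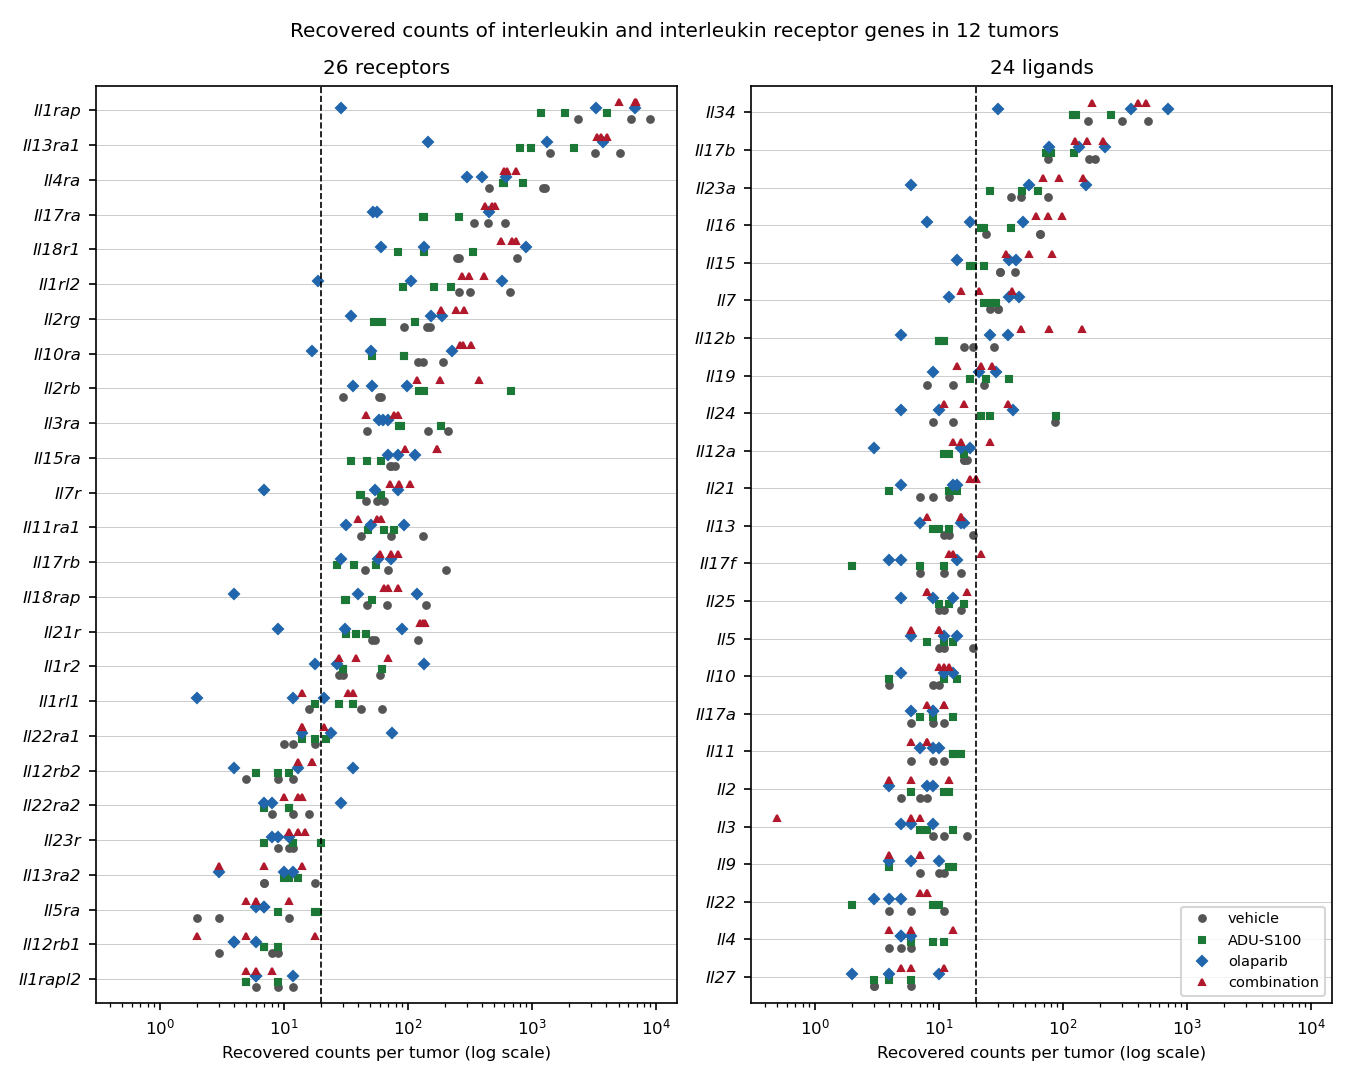
Recovered counts (x axis, log scale) of the 26 receptors and the 24 ligands, with each symbol 1 tumor, the color and shape its group, and the dashed line 20 counts. Genes are ordered by their median, and the single count of 0 (Il3 in combination tumor 1539) is drawn at 0.5. In all, 11 receptor rows and 2 ligand rows lie wholly to the right of the line, and 13 ligand rows lie wholly at or to the left of it.

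The 13 ligands that never exceeded 20 counts were Il10, Il11, Il13, Il17a, Il2, Il21, Il22, Il25, Il27, Il3, Il4, Il5 and Il9, with 0 to 20 counts. Among them are the classical T cell products IL-2, IL-4 and IL-17A. The 5 receptors in this range were Il12rb1, Il13ra2, Il1rapl2, Il23r and Il5ra, with 2 to 20 counts. The limit is not a natural gap: Il21 and Il23r reached 20 counts, Il17f just passed it with 22 counts in 1 tumor, and the lowest count among the receptors above it in every tumor was 27, for Il17rb. Whether such counts differ from those of the negative controls could not be examined, because the table holds no control probes.

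Scaling set the normalized values of these ligands apart where their counts were alike. The median recovered count of the 13 ligands was 10, 6 and 9 in the vehicle tumors, 10, 9 and 11 in the ADU-S100 tumors, 7, 5 and 10 in the olaparib tumors, and 8, 11 and 8 in the combination tumors. The groups overlapped. The median normalized value was 6.82, 8.92 and 6.23 in the vehicle tumors, 28.5, 17.7 and 15.7 in the ADU-S100 tumors, 13.6, 52.4 and 5.89 in the olaparib tumors, and 6.48, 9.07 and 6.56 in the combination tumors. On that scale, the ADU-S100 tumors lay above all vehicle and combination tumors, and the largest value was that of olaparib tumor 1517, which had the lowest median count.

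**Figure D2:**
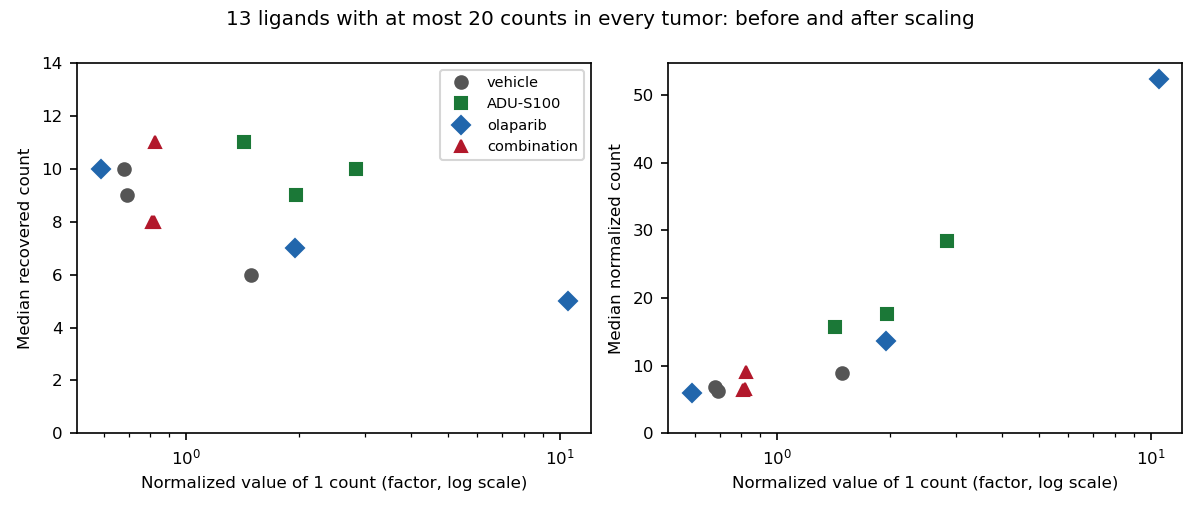
Median over the 13 ligands that never exceeded 20 counts, as recovered counts (left, y axis) and as normalized counts (right, y axis), against the factor of the tumor (x axis, log scale), with 1 symbol per tumor. The counts stay between 5 and 11 for every factor, while the normalized medians run from 5.89 to 52.4 and follow the factor. The ligands were chosen for low counts, which sets this in large part.

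Differences between groups were tested on log2(normalized count + 1), and fold changes on this scale are smaller than the true ones for low genes. Genes entered the test with 3 or more tumors at a normalized value of 20 or higher, as 689 genes and 41 of the 50 members did. All 13 members above 20 counts in every tumor passed, as did 18 of the 19 in between (all but Il17f). Of the 18 members that never exceeded 20 counts, 10 passed, and 33 of their 35 values of 20 or more (94.3%) came from the 5 tumors with the largest factors (1517, 1506, 1512, 1510 and 1529). Il12rb1, Il17a, Il2, Il22, Il27, Il3, Il4 and Il9 did not pass. Because a member could pass through the group in which it is high, shares among the 41 are given as a description.

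No member passed the test in any of the 8 comparisons (limma, adjusted p below 0.05), and nor did any of the 689 genes (0% in each comparison). On recovered counts, the quasi-likelihood test of edgeR also called 0 genes in each comparison, with the authors' factors and with TMM factors. At an unadjusted limma p below 0.05, the combination differed from vehicle in 1 member, against 7.69% of all genes tested. It differed from ADU-S100 in 8 members (9.14% of all genes) and from olaparib in 4 members (7.26%). ADU-S100 differed from vehicle in 6 members (4.79%) and olaparib from vehicle in 3 (7.26%). The interaction (the difference made by ADU-S100 under olaparib less that made by it alone) had 10 members at this level (10.9%). All 6 tumors with ADU-S100 against the 6 without gave 1 member (3.05%), and all 6 with olaparib against the 6 without gave 1 (7.55%). Among the 41 members, these shares were 2.44%, 19.5%, 9.76%, 14.6%, 7.32%, 24.4%, 2.44% and 2.44% in the order given. Members that never exceeded 20 counts made up 4 of the 8 against ADU-S100 and 2 of the 4 against olaparib. They also made up 2 of the 6 for ADU-S100 against vehicle and 5 of the 10 in the interaction. In the same order, edgeR with the authors' factors counted 1, 6, 11, 6, 8, 14, 1 and 2 members at an unadjusted p below 0.05, against 7.55%, 8.27%, 13.2%, 5.95%, 12.2%, 18.00%, 3.05% and 6.53% of all genes. With TMM factors it counted 2, 12, 12, 4, 5, 12, 1 and 4 members, against 8.999%, 16.7%, 14.2%, 5.08%, 7.84%, 14.4%, 5.37% and 10.3% of all genes.

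Whether 2 groups overlapped was also counted, with the shares of all genes taken in either direction. The combination lay wholly above vehicle for 8 of the 41 members (Il10, Il10ra, Il12b, Il12rb2, Il21, Il21r, Il23a and Il2rb), where 20.03% of all genes did not overlap. Combination and ADU-S100 tumors did not overlap for 19 members (31.3% of all genes). Only Il12b lay above, and of the 18 members below, 8 never exceeded 20 counts. Combination and olaparib tumors were apart for 4 members (12.8% of all genes), with Il10ra, Il13ra1 and Il21r above and Il5 below. ADU-S100 and vehicle tumors did not overlap for 9 members, where 14.9% of all genes did not overlap. These were Il11, Il12rb2, Il17b, Il19, Il22ra1, Il22ra2, Il23a, Il2rb and Il5ra, all higher with ADU-S100. Olaparib and vehicle tumors were apart for Il23a alone, which was higher with olaparib, where 4.79% of all genes did not overlap. In the comparisons of 6 tumors against 6, no member was apart, against 0.145% of all genes for ADU-S100 and 0% for olaparib. With 3 tumors against 3, an exact permutation test cannot give a p-value below 0.1.

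Differences of the members were also described by how well they were counted. Between ADU-S100 and vehicle tumors, the median log2 difference was 1.19 for the 18 members that never exceeded 20 counts, 0.78 for the 19 in between and 0.36 for the 13 above 20 in every tumor, against 0.48 over all genes. The difference between the mean log2 factors of these groups was 1.17. Between olaparib and vehicle tumors, the 3 medians were 1.13, 0.65 and 0.57, with 0.50 over all genes and a factor difference of 1.37. All 18 of the least counted members were above vehicle in both comparisons. Between combination and ADU-S100 tumors, the medians were -1.44, -0.39 and -0.25, with -0.30 over all genes and a factor difference of -1.29, and between combination and olaparib tumors they were -1.24, -0.28 and -0.78, with -0.23 and -1.49. All 18 were then lower in the combination. Between combination and vehicle tumors, whose factors differed by -0.12 on the log2 scale, the medians were -0.11, 0.37 and 0.16, with 0.20 over all genes. The median over all 50 members was 0.11 there and changed sign with the scaling, to -0.08 after quantile normalization and -0.23 with edgeR and TMM factors.

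**Figure D3:**
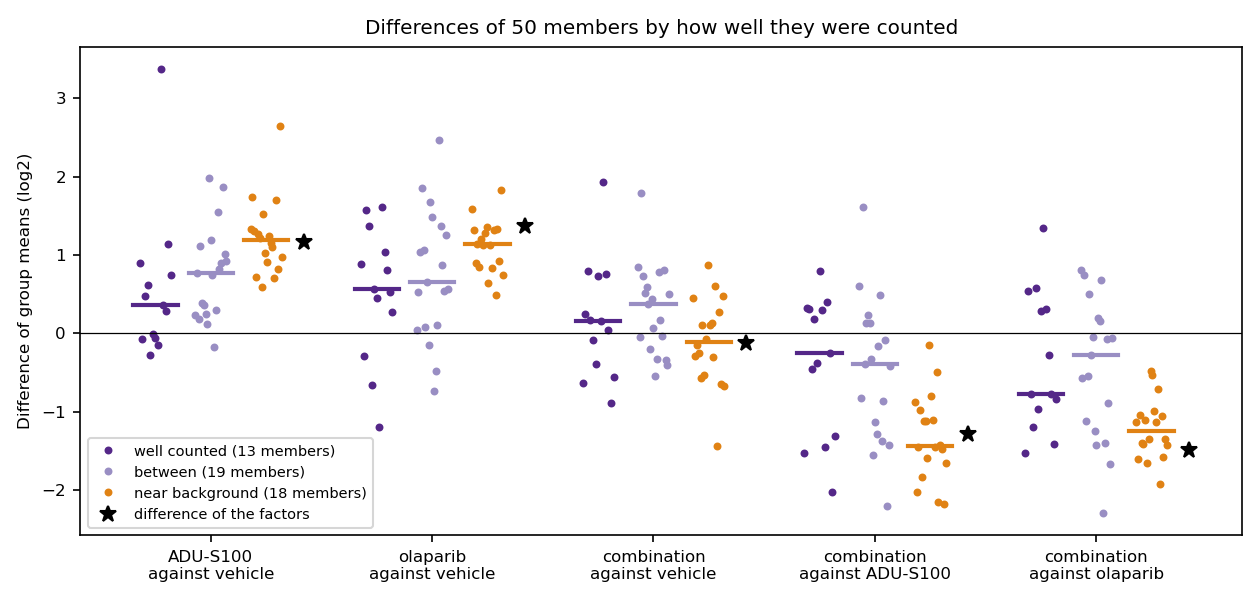
Log2 differences of group means for each of the 50 members (points), split by how well they were counted, with the median of each class (bars) and the difference of the mean log2 factors (stars), for 5 comparisons (x axis). The class that never exceeded 20 counts lies near the star in every comparison, with medians from -1.44 to 1.19. It was chosen by its counts, so that this follows in large part from the choice.

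Among ligands, Il12b had the smallest limma p-value of all members in the comparison of the combination with vehicle. It encodes the p40 subunit shared by IL-12 and IL-23, and it was singled out after its values were seen, since it had more than 20 counts in only 6 tumors. Promoter sequence from RefSeq (GRCm38.p6, windows of 300 bases, given as 250 before to 50 after a start site) is printed for it and for Il15ra, the receptor chain that presents IL-15, because these had the smallest p-values between tumors with and without olaparib, Il12b among all members and Il15ra among those above 20 counts in at least 9 tumors. Capitals mark a match on either strand to the NF-κB motif, spelled as GGG, any 5 bases and CC. The Il12b window, on the plus strand of chr11:44399813-44400112, held no match to this motif, to the GAS motif (TTC, any 3 bases, GAA) or to the ISRE motif (GAAA, any 2 bases, GAAA). The Il15ra window, on the plus strand of chr2:11705462-11705761, is 1 of 2 listed for the gene. It lies downstream of the start of the gene in the RefSeq gene table, at position 11705172, which falls within the other window, and that window held no match.
Il12b: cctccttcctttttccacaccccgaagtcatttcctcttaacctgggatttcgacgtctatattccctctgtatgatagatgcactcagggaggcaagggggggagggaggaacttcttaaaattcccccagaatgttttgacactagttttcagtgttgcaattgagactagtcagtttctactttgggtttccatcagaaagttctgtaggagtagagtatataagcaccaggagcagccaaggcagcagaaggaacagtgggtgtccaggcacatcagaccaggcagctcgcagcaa
Il15ra: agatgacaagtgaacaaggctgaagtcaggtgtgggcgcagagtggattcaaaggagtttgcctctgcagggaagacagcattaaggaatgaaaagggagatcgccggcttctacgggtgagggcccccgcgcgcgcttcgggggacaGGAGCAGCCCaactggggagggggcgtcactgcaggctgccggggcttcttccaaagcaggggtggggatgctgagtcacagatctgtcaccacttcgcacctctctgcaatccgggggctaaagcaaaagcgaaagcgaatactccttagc

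Of the 50 members, 36 had a promoter entry. A gene can have several windows and was counted once if any held the motif. The NF-κB motif occurred in 22 of the 36 members (61.1%), against 53.5% of 27025 genes and 50.8% of 32851 single windows. The GAS motif occurred in 6 members (16.7%), 9.55% of genes and 8.30% of windows, and the ISRE motif in 3 members (Il19, Il1rap and Il4; 8.33%), 3.99% of genes and 3.44% of windows. The 3 motifs were searched on both strands, and a match is a description of the letters.

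In the IL-12 family, Il12b had 19.1, 23.8 and 13.2 normalized counts in vehicle tumors, 31.3, 19.6 and 14.3 in ADU-S100 tumors, 50.7, 52.4 and 21.2 in olaparib tumors, and 116, 37.9 and 63.1 in combination tumors. In recovered counts these were 28, 16 and 19, then 11, 10 and 10, then 26, 5 and 36, and 143, 46 and 77. The combination tumors were above all vehicle and ADU-S100 tumors on both scales and overlapped the olaparib tumors in normalized counts. The log2 difference from vehicle was 1.79 (SE 0.53, n = 3 per group), with an adjusted p of 0.278 (limma), and it ranged from 1.20 to 2.17 over 23 alternative settings, with adjusted p-values from 0.207 to 0.994. The difference from ADU-S100 was 1.61 (SE 0.53, limma adjusted p = 0.492), and that from olaparib was 0.75 (SE 0.53, limma adjusted p = 0.663), or 0.34 without olaparib tumor 1521. Between the 6 tumors with olaparib and the 6 without, it was 1.33 (SE 0.37, limma adjusted p = 0.529).

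Of the 7 dendritic cell markers listed, 4 were on the panel (Itgax, Flt3, Ccr7 and Xcr1), and each had more than 20 counts in some tumor. Their summed normalized level was 110 to 169 in vehicle, 128 to 242 in ADU-S100, 148 to 398 in olaparib and 197 to 349 in combination tumors. The combination tumors were thus above vehicle for these markers as well, and the part of the markers in the Il12b difference was not tested. The 8 macrophage markers on the panel summed to 4012 to 10655 in vehicle and 6866 to 8425 in combination tumors and overlapped.

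Il23a, which encodes the IL-23 subunit p19, had 51.8, 56.5 and 31.9 normalized counts in vehicle tumors, 74.1, 92.3 and 89.9 in ADU-S100 tumors, 103, 62.9 and 91.3 in olaparib tumors, and 75.3, 120 and 56.6 in combination tumors. Every treated tumor was above every vehicle tumor, the closest being a combination tumor at 56.6 and a vehicle tumor at 56.5. The recovered counts were 76, 38 and 46, then 26, 47 and 63, then 53, 6 and 155, and 93, 145 and 69, so that every treated group overlapped vehicle before scaling, and the 62.9 of olaparib tumor 1517 stands for 6 counts. The log2 differences from vehicle were 0.89 for ADU-S100 (SE 0.40, limma adjusted p = 0.809), 0.87 for olaparib (SE 0.40, limma adjusted p = 0.582) and 0.80 for the combination (SE 0.40, limma adjusted p = 0.652), the last being 0.52 without combination tumor 1270. These 3 comparisons share the vehicle tumors. With quantile normalization, they were 0.18, 0.086 and 0.33 for ADU-S100, olaparib and the combination.

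The other members of the family were scarcer. Il12a, the IL-12 subunit p35, had 3 to 26 counts, and Il27, which encodes a subunit of IL-27, had 2 to 11. Among the receptor chains, Il12rb1, which binds p40, had 2 to 18 counts and Il23r 7 to 20. Il12rb2, the signaling chain for IL-12, exceeded 20 counts in 1 tumor, olaparib 1510, with 36. Its log2 difference between olaparib and vehicle was 1.85 (SE 0.68, limma adjusted p = 0.577), or 1.23 without that tumor.

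Among receptors of the common gamma chain family, Il2rb encodes the β chain through which T and NK cells receive IL-2 and IL-15. Normalized counts were 20.5, 90.7 and 40.9 in vehicle tumors, 1934, 265 and 175 in ADU-S100 tumors, 193, 545 and 21.2 in olaparib tumors, and 95.6, 310 and 149 in combination tumors. All ADU-S100 and all combination tumors were above all vehicle tumors, whereas the olaparib tumors spanned the range. The difference between ADU-S100 and vehicle was 3.37 on the log2 scale (SE 1.17, limma adjusted p = 0.809), and without ADU-S100 tumor 1506 it was 2.32. Between the 6 tumors with ADU-S100 and the 6 without, it was 1.84 (SE 0.83, limma adjusted p = 0.999), or 1.20 without olaparib tumor 1521.

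NK cell markers were set beside Il2rb. All 5 listed markers were on the panel, and Klrb1c, a defining one, never exceeded 20 counts. Their summed normalized level was 74.4, 137 and 83.1 in vehicle tumors, 607, 216 and 156 in ADU-S100 tumors, 164, 723 and 81.9 in olaparib tumors, and 188, 294 and 188 in combination tumors. Tumor 1506 was again the highest of the ADU-S100 group and tumor 1521 the lowest of the olaparib group. The same held for the summed T cell, B cell and dendritic cell markers, so this order was not particular to NK cells. Over all tumors, the NK cell sum was highest in olaparib tumor 1517 and Il2rb in ADU-S100 tumor 1506. Of the NK cell markers, Klrc1 was highest of the ADU-S100 group in tumor 1512. The 10 T cell markers, of which Cd2 never exceeded 20 counts, summed to 121 to 266 in vehicle, 201 to 518 in ADU-S100, 159 to 817 in olaparib and 382 to 617 in combination tumors. The part of these cells in the receptor values was not tested.

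Il2rg, the common gamma chain itself, had 63.4, 214 and 105 normalized counts in vehicle tumors, 325, 122 and 77.0 in ADU-S100 tumors, 302, 367 and 112 in olaparib tumors, and 149, 201 and 234 in combination tumors. All groups overlapped. Between tumors with and without olaparib, the log2 difference was 0.72 and the limma adjusted p was 0.775.

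Il15ra had 49.8, 117 and 49.9 normalized counts in vehicle tumors, 174, 68.8 and 67.1 in ADU-S100 tumors, 222, 723 and 48.9 in olaparib tumors, and 139, 143 and 78.7 in combination tumors. Olaparib tumor 1517 was the highest and olaparib tumor 1521 the lowest of all 12. The difference between tumors with and without olaparib was 0.94 (SE 0.59, limma adjusted p = 0.752), and it was 0.48 without olaparib tumor 1517 and 1.45 without olaparib tumor 1521. In recovered counts, 2 combination tumors had the most, 171 and 173, against 35 to 114 in the other tumors. Its ligand Il15 had 14 to 82 counts, and its combination tumors (42.9, 67.6 and 28.7 normalized) overlapped vehicle (28.0, 46.1 and 21.5).

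Il21r, the receptor of the helper T cell cytokine IL-21, had 37.5, 77.3 and 83.1 normalized counts in vehicle tumors, 131, 74.7 and 45.7 in ADU-S100 tumors, 60.4, 94.3 and 53.0 in olaparib tumors, and 113, 104 and 108 in combination tumors. The combination tumors were close together and above every vehicle and olaparib tumor, but not above ADU-S100 tumor 1506. The log2 difference from vehicle was 0.79 (SE 0.47, limma adjusted p = 0.731), or 0.43 without vehicle tumor 1269 and 0.35 with quantile normalization. Its ligand Il21 had 20, 20 and 18 recovered counts in the combination and 4 to 14 elsewhere, all at or below the limit of 20.

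Il7r, the IL-7 receptor of naive and memory lymphocytes, had 38.9, 68.4 and 45.0 normalized counts in vehicle tumors, 117, 120 and 59.9 in ADU-S100 tumors, 164, 73.4 and 32.4 in olaparib tumors, and 84.2, 70.1 and 59.0 in combination tumors. ADU-S100 tumors overlapped vehicle tumors by 1 tumor, with a log2 difference of 0.92 (SE 0.56, limma adjusted p = 0.809), or 0.27 with quantile normalization.

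Il7, its stroma-derived ligand, was named in 4 comparisons, yet rested on 12 to 44 counts per tumor. Its normalized counts were 20.5, 38.7 and 20.8 in vehicle tumors, 76.9, 57.0 and 32.8 in ADU-S100 tumors, 85.7, 126 and 21.8 in olaparib tumors, and 12.2, 32.2 and 17.2 in combination tumors. The combination was below every ADU-S100 tumor, with a log2 difference of -1.42 (SE 0.64, limma adjusted p = 0.531). The difference from olaparib was -1.66 (SE 0.64, limma adjusted p = 0.594), that of olaparib from vehicle was 1.25 (SE 0.64, limma adjusted p = 0.582), and the interaction was -2.67 (SE 0.91, limma adjusted p = 0.346). Without olaparib tumor 1517 the last 3 values were -1.16, 0.75 and -2.17. With quantile normalization, the combination differed from ADU-S100 by -0.87 and olaparib from vehicle by 0.70, and the interaction was -1.58. In recovered counts the ADU-S100 tumors had 27, 29 and 23, and the combination tumors 15, 39 and 21, so that the groups overlapped before scaling. The 8 stromal and endothelial markers, all on the panel and none at 20 counts or less throughout, summed to 14544 to 72746 normalized counts in vehicle, 27918 to 50048 in ADU-S100, 3817 to 36909 in olaparib and 12861 to 23746 in combination tumors. The combination tumors were thus below every ADU-S100 tumor for these markers too, as they were for Il3ra, Il4ra and Il11ra1. The 5 granulocyte and mast cell markers on the panel (8 listed) summed to 1900 to 7717 in ADU-S100 and 1543 to 1708 in combination tumors, and to 1060 to 2202 in vehicle and 702 to 3359 in olaparib tumors. The part of these cells in the values of the receptors and of Il7 was not tested.

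Il4ra, which serves IL-4 and IL-13 and is widely used on macrophages and epithelium, had 308, 1815 and 883 normalized counts in vehicle tumors, 2398, 1147 and 857 in ADU-S100 tumors, 772, 3133 and 364 in olaparib tumors, and 481, 521 and 617 in combination tumors. The combination tumors lay below every ADU-S100 tumor (log2 difference -1.31, SE 0.81, limma adjusted p = 0.605) and within the range of vehicle. With the series of the tumor number as a block, the difference was -0.53. The recovered counts were 842, 584 and 601 with ADU-S100 and 594, 632 and 753 in the combination, which overlapped.

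Il13ra1, the chain that joins Il4ra to bind IL-13, was among the most evenly measured. It had 3476, 2069 and 2224 normalized counts in vehicle tumors, 2287, 1947 and 3106 in ADU-S100 tumors, 2580, 1520 and 2222 in olaparib tumors, and 3258, 2964 and 2774 in combination tumors. The combination lay above olaparib with a log2 difference of 0.54 (SE 0.38, limma adjusted p = 0.663), or 0.32 without olaparib tumor 1517 and 0.25 with the same block, and the other groups overlapped. The type 2 ligands themselves, Il4 (4 to 13 counts), Il5 (6 to 19) and Il13 (7 to 19), were never above 20 counts, nor was Il5ra (2 to 19).

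Il3ra, the receptor chain for IL-3, had 32.1, 317 and 102 normalized counts in vehicle tumors, 533, 167 and 127 in ADU-S100 tumors, 115, 734 and 37.1 in olaparib tumors, and 37.3, 63.5 and 68.9 in combination tumors. It was lower in every combination tumor than in any ADU-S100 tumor, with a log2 difference of -2.02 (SE 1.06, limma adjusted p = 0.539), or -1.04 with the same block, and the combination overlapped vehicle and olaparib. In recovered counts this separation was smaller, with 187, 85 and 89 against 46, 77 and 84. Its ligand Il3 had 0 to 17 counts.

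In the IL-10 family, Il10ra, the ligand-binding chain of the IL-10 receptor on leukocytes, had 90.0, 180 and 134 normalized counts in vehicle tumors, 265, 183 and 74.2 in ADU-S100 tumors, 99.4, 178 and 133 in olaparib tumors, and 260, 217 and 228 in combination tumors. The combination tumors were above all vehicle and all olaparib tumors, while the ADU-S100 tumors held both a higher and the lowest value. The log2 difference was 0.85 from vehicle (SE 0.49, limma adjusted p = 0.705; 0.49 with edgeR and TMM factors) and 0.81 from olaparib (SE 0.49, limma adjusted p = 0.643). Il10 itself had 4 to 14 counts.

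The epithelial side of the family was sparse. Il22ra1, a receptor chain of epithelial cells for IL-22, IL-20 and IL-24, had 75 counts in olaparib tumor 1510 and 10 to 24 in the others. In normalized counts, olaparib tumors 1510, 1517 and 1521 were at 146, 147 and 14.1, the second from 14 counts. Its log2 difference between olaparib and vehicle was 2.46 (SE 0.77, limma adjusted p = 0.577), or 1.91 without olaparib tumor 1517. Il22ra2 had 29 counts in olaparib tumor 1510 and 7 to 16 elsewhere. Among the ligands, Il19 had 8 to 37 counts and Il24 had 5 to 88, the latter with 86 in vehicle tumor 1536 and 88 in ADU-S100 tumor 1512. Il22 had 2 to 11.

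**Figure D4:**
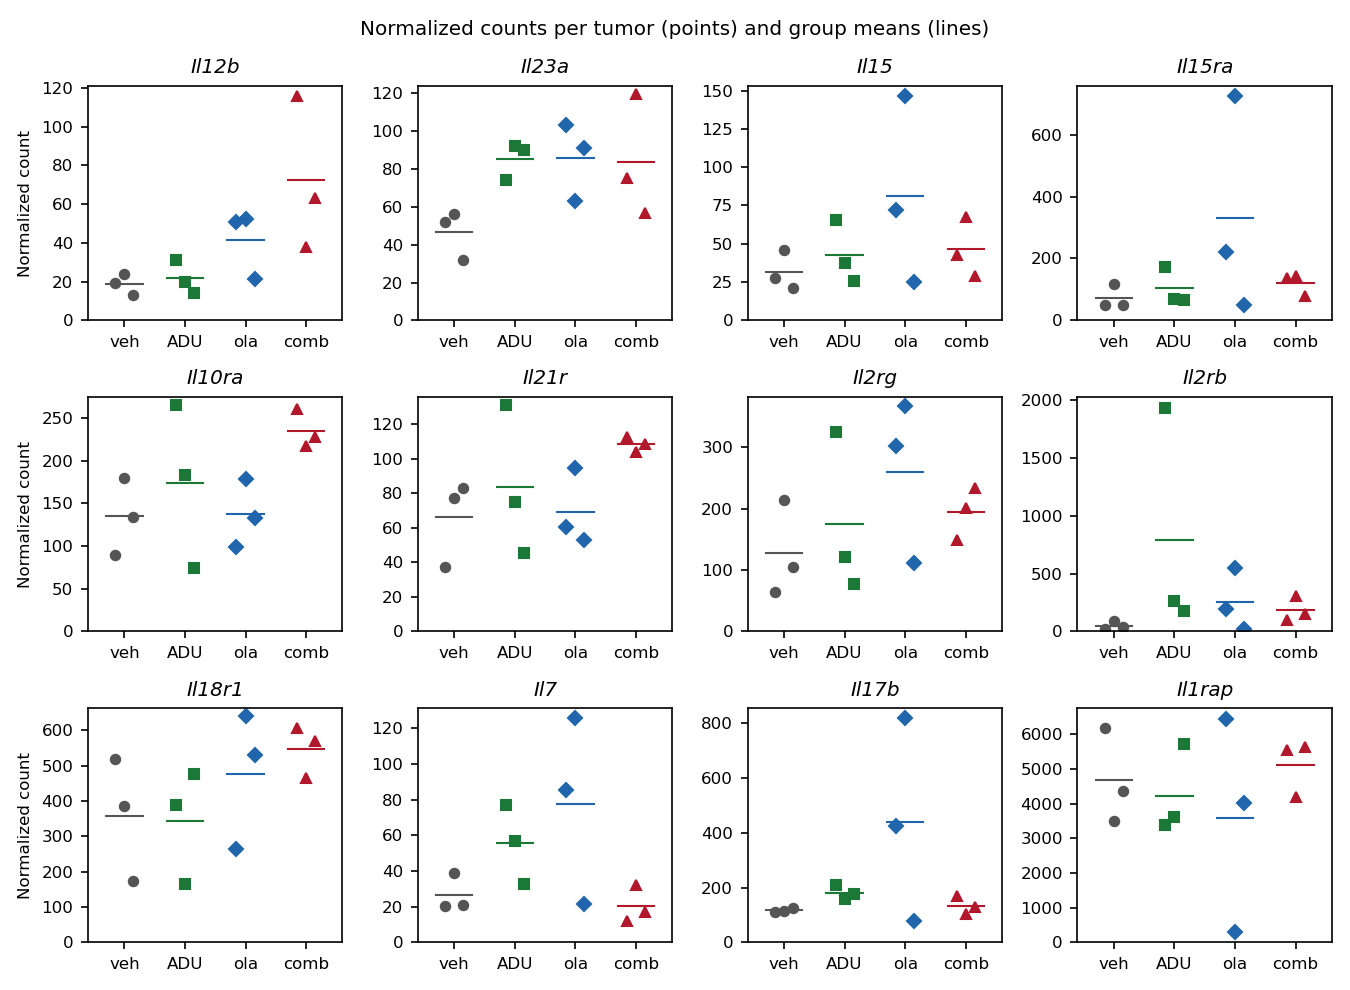
Normalized counts (y axis, from 0) of 12 members in the 12 tumors, with 1 symbol per tumor, the horizontal line the group mean, and the groups vehicle (veh), ADU-S100 (ADU), olaparib (ola) and combination (comb). Il10ra and Il21r are above 100 in all 3 combination tumors, at 217 to 260 and 104 to 113, whereas Il2rb reaches 1934 in a single ADU-S100 tumor and Il1rap is at 304 in olaparib tumor 1517.

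In the IL-1 receptor family, Il1rap, the accessory chain that receptors for IL-1, IL-33 and IL-36 share, had the highest counts of any member, up to 9048 in vehicle tumor 1269. Its normalized counts were 6172, 3488 and 4359 in vehicle tumors, 3378, 3613 and 5714 in ADU-S100 tumors, 6451, 304 and 4032 in olaparib tumors, and 5535, 4187 and 5635 in combination tumors. Olaparib tumor 1517, with 29 counts, stood more than 10-fold below the other 11 tumors, and the groups otherwise overlapped. In the same tumor Il13ra1 was also the lowest of the 12, at 1520. The log2 difference between olaparib and vehicle was -1.19 (SE 0.89, limma adjusted p = 0.623), and without tumor 1517 its sign turned, to 0.17.

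Il18r1, the ligand-binding chain for IL-18, had 518, 385 and 173 normalized counts in vehicle tumors, 387, 165 and 477 in ADU-S100 tumors, 263, 639 and 530 in olaparib tumors, and 605, 464 and 571 in combination tumors. The combination overlapped every other group. The log2 difference between tumors with and without olaparib was 0.63 and the limma adjusted p was 0.752, and the difference was 0.40 without ADU-S100 tumor 1512. Its partner chain Il18rap had 4 to 141 counts, with 4 in olaparib tumor 1517.

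Il1r2, a decoy receptor that captures IL-1, had 19.1, 44.6 and 41.6 normalized counts in vehicle tumors, 85.5, 122 and 42.8 in ADU-S100 tumors, 265, 189 and 15.9 in olaparib tumors, and 56.7, 23.1 and 31.2 in combination tumors. Olaparib tumors 1510 and 1517 were the highest and olaparib tumor 1521 the lowest. Its interaction was -2.61 (SE 1.27, limma adjusted p = 0.439). Il1rl1, the IL-33 receptor, had 2 to 62 counts, Il1rl2, the IL-36 receptor, had 19 to 664, and Il1rapl2 had 5 to 12. The Il1rl2, Il1rl1, Il18r1 and Il18rap genes follow each other directly on chromosome 1 in the RefSeq gene table.

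In the IL-17 family, Il17b was well counted and Il17a and Il25 were not. Il17b had 112, 113 and 127 normalized counts in vehicle tumors, 208, 159 and 175 in ADU-S100 tumors, 425, 817 and 79.6 in olaparib tumors, and 169, 103 and 130 in combination tumors. In normalized counts, all ADU-S100 tumors were above all vehicle tumors, with a log2 difference of 0.61 (SE 0.68, limma adjusted p = 0.873). The recovered counts were 73, 81 and 123 with ADU-S100 and 164, 76 and 183 in vehicle, so that these groups overlapped before scaling. The olaparib group held both the 2 highest normalized values and the lowest, and the 817 of olaparib tumor 1517 stands for 78 counts. The log2 difference was 1.36 between olaparib and vehicle (SE 0.68, limma adjusted p = 0.582) and -1.20 between combination and olaparib (SE 0.68, limma adjusted p = 0.611), and the interaction was -1.82 (SE 0.96, limma adjusted p = 0.439). Without olaparib tumor 1517, these 3 values were 0.65, -0.49 and -1.10.

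The receptor chain for IL-17A and its relatives, Il17ra, had 417, 513 and 308 normalized counts in vehicle tumors, 382, 267 and 368 in ADU-S100 tumors, 111, 555 and 268 in olaparib tumors, and 386, 347 and 412 in combination tumors, and the groups overlapped in every comparison. Il17rb, which binds IL-17B and IL-25, had 139, 104 and 31.2, then 105, 53.0 and 79.9, then 113, 304 and 43.6, and 48.6, 60.2 and 68.1 in the same order, and these groups overlapped as well. Il17a had 6 to 13 counts, Il17f 2 to 22 and Il25 5 to 17.

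Of the remaining members, Il34, a second ligand of the macrophage receptor CSF1R, had 331, 238 and 209 normalized counts in vehicle tumors, 362, 238 and 350 in ADU-S100 tumors, 1368, 314 and 208 in olaparib tumors, and 377, 143 and 330 in combination tumors. Olaparib tumor 1510 stood apart with 702 recovered counts, and the groups overlapped. The log2 difference between olaparib and vehicle was 0.81 (SE 0.65, limma adjusted p = 0.642), and without tumor 1510 it was 0.0091. Il16, a lymphocyte chemoattractant, had 8 to 99 counts. Il11ra1, the IL-11 receptor chain, had 28.6, 198 and 51.3 normalized counts in vehicle tumors, 219, 94.3 and 92.7 in ADU-S100 tumors, 181, 534 and 18.9 in olaparib tumors, and 32.4, 47.0 and 50.0 in combination tumors, and near-identical gene copies in mouse make its identity uncertain. Its ligand Il11 had 6 to 15 counts.

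The 3 olaparib tumors were not alike for these genes, and 1 of them decided the count of calls. Without olaparib tumor 1521, limma called 9 members and 54 genes (7.84%) between combination and olaparib. All 9 members were lower in the combination, namely Il22ra2, Il22ra1, Il17b, Il1r2, Il7, Il1rapl2, Il11, Il12rb2 and Il5. In the same setting, 8 members and 55 genes (7.98%) were called between olaparib and vehicle, and the 8 members, all higher, were Il22ra1, Il22ra2, Il17b, Il12rb2, Il1r2, Il15ra, Il7 and Il11. The interaction had 14 members, all lower, and 86 genes (12.5%). These calls compare olaparib tumors 1510 and 1517, whose factors were 1.95 and 10.5, with the other groups. Of the 9, 8 and 14 members, 3, 1 and 6 never exceeded 20 counts. Il22ra2 and Il12rb2 exceeded 20 counts only in olaparib tumor 1510, with 29 and 36, and had 7 and 4 in olaparib tumor 1517. Il22ra1 had 75 and 14 counts in these 2 tumors.

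Among the genes through which these receptors signal, 19 of the 21 listed JAK, STAT, SOCS, MyD88 and IRAK pathway genes were on the panel. None passed the test in any comparison (limma), and 0 to 3 of them per comparison had an unadjusted p below 0.05. The median log2 difference of the 19 genes was 0.32 between combination and vehicle (16 higher, median of all genes 0.20), 0.21 between combination and ADU-S100 (11 higher, all genes -0.30) and -0.08 between combination and olaparib (9 higher, all genes -0.23). Against vehicle, it was 0.20 for ADU-S100 (14 higher, all genes 0.48) and 0.61 for olaparib (16 higher, all genes 0.50). Of the 7 lymphocyte transcription factors on the panel (8 listed), 0 passed the test. Their medians in these 5 comparisons were 0.39, -0.41, -0.83, 0.80 and 1.005, with 6, 1, 1, 7 and 7 genes higher.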

How the data were processed

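Tumor RNA (100 ng per tumor) was hybridized to the nCounter Mouse Cancer Immune code set, an assay that counts barcoded probes without amplification. The deposited table holds a linear signal, namely normalized counts that the authors made in nSolver 4.0 with background correction and scaling to positive controls and housekeeping genes. Control probes were not analysed here. All 50 member symbols were current in the mouse RefSeq table (GRCm38.p6).

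Recovered counts were the deposited values divided by 1 step per tumor. At least 99.8661% of values came out whole within 0.01 of a count, and the floor value of 1 was taken as 0 counts. A large step means few counts, so that 1 count more or less moves a low normalized value strongly.

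Values were tested as log2(normalized count + 1) over the 689 genes with at least 20 in at least 3 tumors. Limma 3.58.1 in R 4.3.3 fitted 1 mean per group over 12 tumors, with Benjamini-Hochberg adjustment and a threshold of 0.05. Class medians use all 750 genes and all 50 members without the filter. The edgeR 4.0.16 quasi-likelihood test on recovered counts, other scalings, filters and pseudocounts, the methods' one-way comparison with Holm-Sidak adjustment, and leaving out each tumor were alternatives, 23 settings in all. The main limma fit and edgeR with the authors' factors were run on simulated data for the combination against vehicle. The other settings were not. Groups were taken from the labels.

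Members and lists were chosen with earlier results of these data known. Named were, for each of 8 comparisons, the 3 members of smallest limma p-value among those above 20 counts in at least 9 tumors (23 members), which gave 13, and all members above 20 counts in every tumor. A marker list for B cells was also summed. Its genes (Cd79a, Blk and Cr2 never above 20 counts) summed to 26.5 to 325 normalized counts per tumor. Values of 1 signaling gene are not reported here.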

Additional observations from a re-analysis of the deposited data

How the results depend on the processing

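No paired analysis was possible because the groups share no tumor numbers. The numbers begin with 12 in vehicle tumor 1269 and combination tumors 1251 and 1270 and with 15 in the others. The labels do not explain this, and with this series as a block limma called 0 genes in each of the 8 comparisons. Refits were made for 33 log2 differences of Il12b, of members above 20 counts in 9 or more tumors, and of Il12rb2 and Il22ra1. Besides those given above, they cover Il10ra (0.53, limma adjusted p = 0.999) and Il21r (0.49, limma adjusted p = 0.999) between tumors with and without ADU-S100. Of 757 refits, 756 kept the direction. The other, Il1rap in olaparib against vehicle (-1.19), was 0.17 without olaparib tumor 1517 and ran from -2.04 to 0.17 with tumors left out. The median member difference changed sign in 4 of 23 settings for the combination against vehicle (-0.23 to 0.21), in 5 for tumors with against without ADU-S100 (-0.30 to 0.32) and in 8 for tumors with against without olaparib (-0.27 to 0.36), and in 0 for the other comparisons. With the methods' Holm-Sidak comparison, unadjusted over genes, 35, 38 and 27 genes passed for the combination against vehicle, ADU-S100 and olaparib. Against ADU-S100, limma called 1 gene, not a member, with a pseudocount of 10, quantile normalization, scaling to equal medians, a filter of 50 or an intensity trend, as did the methods' comparison adjusted over genes. Leaving out 1 tumor gave 0 to 1 genes for this comparison, 0 to 54 genes and 0 to 9 members against olaparib, 0 to 55 and 0 to 8 for olaparib against vehicle, and 0 to 86 and 0 to 14 for the interaction, the highest without olaparib tumor 1521, except the single gene, which was called without ADU-S100 tumor 1506.

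The median member difference between combination and olaparib, -0.92, was -0.17 among members above 20 counts in 3 tumors and ran from -1.70 to -0.23 when tumors were left out. That of ADU-S100 against vehicle, 0.86, was 0.025 after quantile normalization. For olaparib against vehicle, the median of 0.89 was 0.23 after quantile normalization and 0.26 to 1.54 with tumors left out. For the combination against ADU-S100, the median of -0.87 was -0.22 after quantile normalization and -0.98 to -0.51 with tumors left out. The interaction median, -1.97, was -0.52 after quantile normalization, -1.21 with edgeR and TMM factors, -0.96 with either a filter of 50 or of 20 counts, and -2.83 to -1.23 with tumors left out. The causes were not tested.

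With a limit of 40 counts, 5 receptors and 1 ligand were above it in every tumor. With a limit of 10, 4 ligands were above it in every tumor, and 0 receptors and 0 ligands in no tumor. Leaving out tumors gave 11 to 17 receptors above 20 in every tumor. Without olaparib tumor 1521, Il7 (-2.39, limma adjusted p = 0.0319) and Il17b (-2.16, 0.0193) passed in the combination against olaparib, Il17b (2.32, 0.0126) and Il7 (1.99, 0.0487) in olaparib against vehicle, and Il7 (-3.41, 0.0190), Il1r2 (-3.85, 0.0190) and Il17b (-2.77, 0.0175) in the interaction, as did Il12rb2 (2.74, 0.0126) and Il22ra1 (3.56, 0.0049) in olaparib against vehicle. Without olaparib tumor 1517 none of these passed, Il12rb2 and Il22ra1 included. The values of the first 7 were then, in the same order, -1.16, -0.49, 0.65, 0.75, -2.17, -2.11 and -1.10. For the 13 ligands and 5 receptors that never exceeded 20 counts, whether the depth could show a difference was not tested.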
